A study of Equus caballus with 33 samples.

Results

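A set of 8 genes of cholesterol synthesis and its control was followed in horse articular cartilage, and 7 of the 8 could be measured. They were found by gene symbol: a probe set (the group of array probes that is summarised to 1 value) was used if the platform annotation gave that symbol alone, and the brightest by mean over the 33 arrays was to be taken where a symbol had several. Each of the 7 had a single such probe set. They stand among 16661 gene symbols and 25923 probe sets in all. The genes are SREBF1 (probe set 14963727), SREBF2 (15059422), INSIG1 (15080042), HMGCS1 (15033420), SQLE (15122493), MSMO1 (15025284) and DHCR7 (14974218). IDI1, the eighth, has no probe set that carries its symbol alone and was not analysed here.

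The study cultured cartilage explants, taken after death from the lower end of the third metacarpal bone of 3 horses with no sign of joint disease. Explants received recombinant equine IL-1β at 10 ng/mL, a cytokine used to mimic joint inflammation, and gave 15 arrays from 5 harvests (days 3, 9 and 15, then days 21 and 27). Others were kept in medium without it and harvested at the same days and at day 0 (18 arrays). Every one of the 11 groups of treatment and day holds 3 arrays, numbered as replicates 1 to 3. No breed, age, sex or genotype is used here. Each sample pools a pair of explants, whose cells were freed with trypsin and collagenase before RNA extraction, so that all groups share this digestion. Values are log2 signals, in which a step of 1 is a doubling, with a median of 5.26 over the data set. Array medians lay between 5.16 and 5.38.

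Cells make cholesterol from acetyl-CoA through mevalonate, squalene and lanosterol, and the genes of this route are switched on by membrane-bound transcription factors, the sterol regulatory element-binding proteins (SREBPs). When sterols are scarce, the escort protein SCAP carries an SREBP from the endoplasmic reticulum to the Golgi apparatus, where proteases release its active part. When sterols are plentiful, INSIG proteins hold SCAP back. SREBF2 encodes the SREBP that acts mainly on cholesterol genes, and SREBF1 encodes those that act mainly on fatty acid genes. Chondrocytes, the resident cells of cartilage, live in a tissue without blood vessels and can take up lipoproteins, make sterols and export them.

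The explants carried chondrocyte markers, and some of them were lower with the cytokine. Of 9 chondrocyte markers measured out of 10 listed, 5 were lower and 0 higher with IL-1β over all days by limma's test. That test called 15.3% of all probe sets as lower and 15.6% as higher. The 5 were CNMD, COMP, COL11A1, COL2A1 and ACAN, at log2 differences (stimulated minus unstimulated) of -3.77, -2.17, -1.91, -1.35 and -1.12. COL9A1, MATN3, SOX9 and HAPLN1 were not called (-0.30, -0.43, 0.18 and -0.09). At day 9 taken alone, 3 were lower and 1 higher. The mean signal of the 9 markers per array lay between 6.43 and 7.93 in stimulated explants, against 8.25 to 8.84 in unstimulated ones, with no overlap. The mean of 7 adipocyte markers (8 listed) ranged from 5.24 to 5.81 with IL-1β and from 5.22 to 5.72 without it, and 0 of the 7 were called (2, LPL and CIDEA, had an unadjusted p under 0.05, at 0.39 and -0.22). For 9 macrophage and monocyte markers (10 listed) these ranges were 4.43 to 4.87 and 4.38 to 4.83, with 1 higher (CD68, at 0.58) and 0 lower. Of 8 fibroblast and synovial lining markers, 3 were higher and 2 lower, with means of 6.45 to 7.26 with IL-1β and 6.43 to 7.14 without it. Whether the chondrocyte marker change has a part in the results below was not tested. In RNA from the mixed cells freed from a sample, fewer cells of a type and less RNA per cell cannot be told apart.

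Over days 3 to 27 together, 6 of the 7 genes were higher in stimulated explants and DHCR7 was not called. SREBF2 and MSMO1 stood about a doubling above unstimulated explants, HMGCS1 somewhat less, and INSIG1, SQLE and SREBF1 by smaller steps. The test was limma's, fitted over all probe sets and groups with p-values adjusted by Benjamini-Hochberg, and 0.05 was the threshold. It called 30.8% of all probe sets in this comparison, 15.6% as higher and 15.3% as lower. It was also fitted to the 12961 probe sets with a mean signal above the median, which include all 7 genes. There it called 3871 as higher and 2962 as lower, a larger share in both directions. The median difference over the 7 genes was 0.45 on the log2 scale, and over all probe sets it was -0.044. Each difference below is stimulated minus unstimulated, ± the standard error of this fit, in which arrays of 1 replicate number at different days count as independent.

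SREBF2, the transcription factor gene of the cholesterol branch, separated the treatments at every day. At day 3 its log2 signal was 9.83, 9.24 and 8.80 with IL-1β (replicates 1 to 3), against 8.71, 8.26 and 8.09 without it. At day 9 the stimulated explants gave 8.91, 9.25 and 9.08, and the unstimulated ones 8.14, 7.15 and 8.0. At day 15 the signals were 9.49, 9.14 and 8.96 with IL-1β and 8.10, 7.63 and 7.93 without it. All 3 stimulated arrays were above all 3 unstimulated ones at each of these days. At day 21 stimulated explants had 9.71, 9.46 and 8.98, against 8.49, 8.30 and 7.90 in unstimulated explants. At day 27 the values were 8.98, 9.43 and 9.16 with the cytokine, and 8.79, 8.10 and 8.20 without it. The groups therefore did not overlap at any of the 5 days. As background, all 3 stimulated arrays lay above all 3 unstimulated ones in 8.37% of all probe sets on day 3, and in 10.4%, 13.1%, 14.5% and 13.1% on the later days in order. The share with all 3 below was not counted. Averaged over days, SREBF2 was 2.15-fold higher, a log2 difference of 1.11 ± 0.14 (limma adjusted p = 2.02e-07), and it was higher in 15 of 15 pairs of 1 day and replicate number.

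Explants of day 0 had SREBF2 signals near those of stimulated explants. It had 9.89, 8.58 and 9.09 at day 0, a mean of 9.19 ± 0.66 (SD, n = 3). With IL-1β the 5 means, in order of day, were 9.29, 9.08, 9.20, 9.38 and 9.19. Without it the means of those days were 8.35, 7.76, 7.89, 8.23 and 8.36. In order of level, the 5 stimulated groups and day 0 formed the upper 6 places, between 9.08 and 9.38, and neighbours among them differed by less than their SDs of 0.17 to 0.66. The 5 later unstimulated groups formed the lower places. Variation of SREBF2 over the 6 times in unstimulated explants passed the limma F-test (F = 5.48, adjusted p = 0.0357), a test that called 4.66% of all probe sets. Without replicate 1, 2 or 3 it did not pass (adjusted p of 0.157, 0.273 and 0.257). The step from day 0 to day 3 alone, at -0.83 ± 0.30, did not pass either (adjusted p = 0.35).

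**Figure D1:**
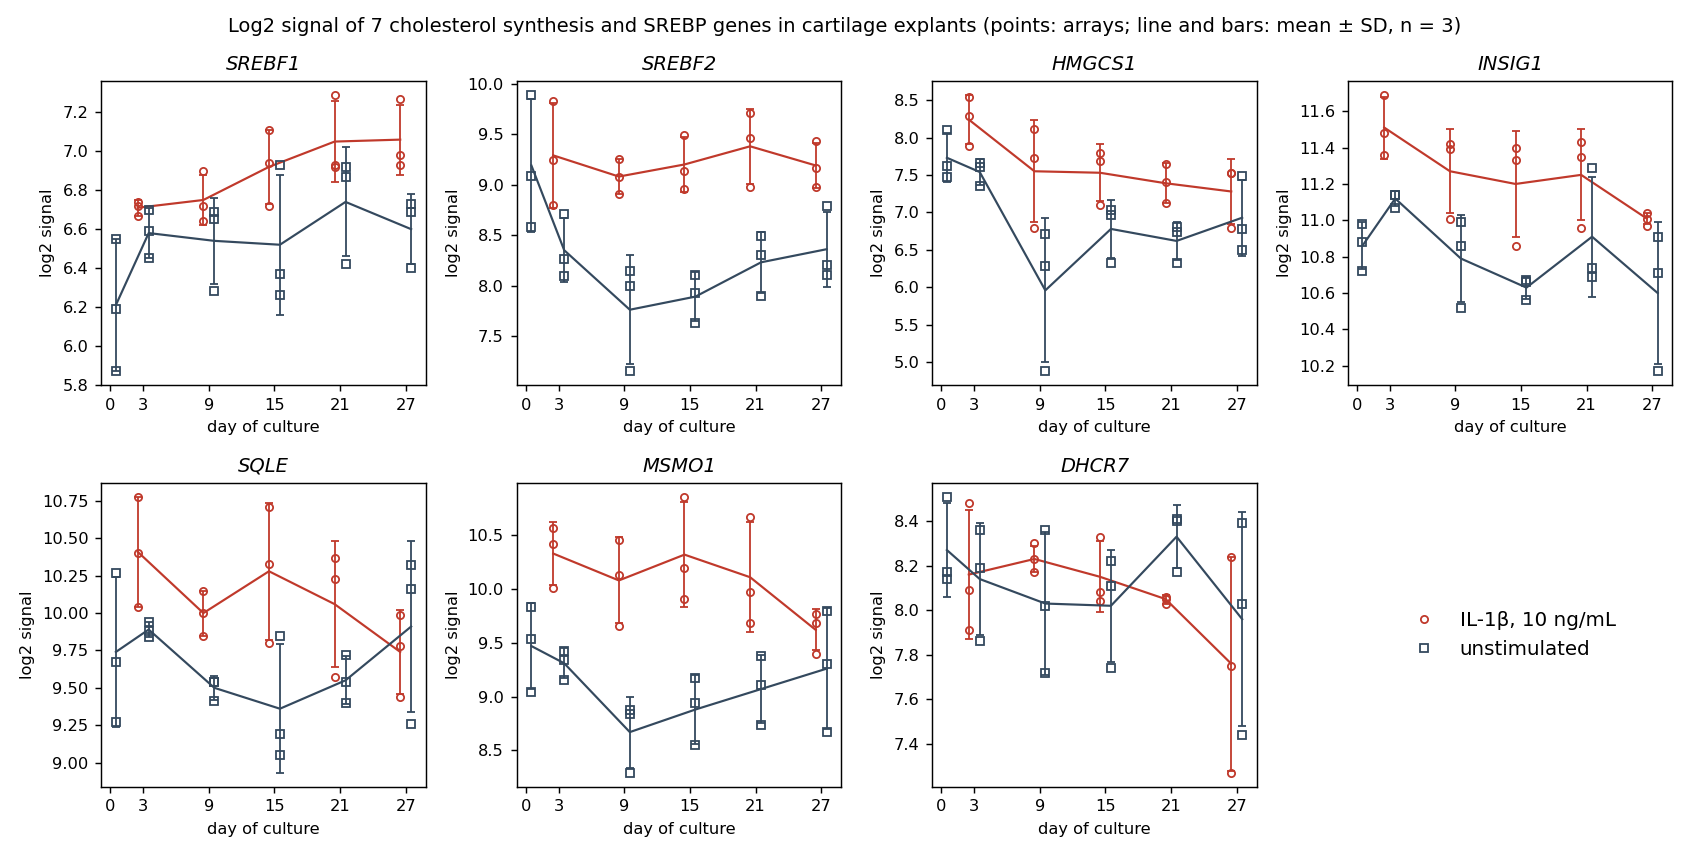
Log2 signal of the 7 genes (vertical axes, each gene on its own scale) by day of culture (horizontal axes), with IL-1β (circles) and without it (squares); points are arrays, set slightly to either side of their day, and lines and bars are the mean ± SD of 3 arrays. SREBF2 stayed between 9.08 and 9.38 on average with IL-1β, while unstimulated explants had means of 7.76 to 8.36 after day 0.

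SREBF1, the gene of the SREBPs of fatty acid synthesis, differed less. Its signals with IL-1β were 6.72, 6.67 and 6.74 at day 3, 6.90, 6.64 and 6.72 at day 9, and 7.11, 6.94 and 6.72 at day 15. Unstimulated explants gave 6.70, 6.59 and 6.45, then 6.69, 6.65 and 6.28, then 6.93, 6.37 and 6.26 at those days. The treatments overlapped at all 3 of them. At day 21 stimulated explants had 7.29, 6.93 and 6.92, against 6.92, 6.87 and 6.42 in unstimulated ones, and at day 27 they had 7.27, 6.98 and 6.93, against 6.69, 6.73 and 6.40. At day 27 the groups were apart, and at day 21 the higher values of the unstimulated explants met the lower ones of the stimulated explants. Averaged over days SREBF1 was 1.23-fold higher (0.30 ± 0.08, adjusted p = 0.00556), in 14 of 15 pairs, and without replicate 3 this did not pass (0.23, adjusted p = 0.113). Its lowest mean was that of day 0, 6.21 ± 0.34, and its highest were those of stimulated explants at days 27 and 21, 7.06 ± 0.18 and 7.05 ± 0.21 (SD, n = 3 each).

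INSIG1 encodes a retention protein of the SCAP and SREBP complex and is itself a known SREBP target. With IL-1β it gave 11.36, 11.69 and 11.48 at day 3 and 10.97, 11.04 and 11.01 at day 27, against 11.07, 11.14 and 11.14 and then 10.91, 10.71 and 10.17 without it. Stimulated explants were above unstimulated ones in 15 of 15 pairs, and the groups overlapped only at day 21. The spread was narrow at some times, with SDs of 0.03 in stimulated explants at day 27 and 0.04 in unstimulated explants at day 3. The average difference was 0.44 ± 0.08, or 1.36-fold (adjusted p = 0.000149), and without replicate 2 it was 0.33 and did not pass (adjusted p = 0.0612). By day, INSIG1 passed at day 15 only, at 0.57 ± 0.19 (adjusted p = 0.0462), and not there without replicate 1 or 2 (adjusted p of 0.213 and 0.464). Its highest group mean was 11.51 ± 0.17, in stimulated explants of day 3, and its lowest 10.60 ± 0.39, in unstimulated explants of day 27.

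HMGCS1 encodes the cytosolic HMG-CoA synthase, which makes the precursor of mevalonate, and had the widest single-day gap of the 7 genes. At day 9 its signals were 8.12, 7.73 and 6.79 with IL-1β, against 6.28, 4.88 and 6.71 without it. The groups only just separated there, and the unstimulated array of replicate 2 lay well below the other two. That array was also the lowest of the unstimulated day 9 explants for SREBF2, MSMO1, SQLE and INSIG1. The day 9 difference of 1.59 ± 0.37 passed (adjusted p = 0.00496), and without replicate 2 it was 0.96 and did not (adjusted p = 0.31). It also did not pass without replicate 1 (1.47, adjusted p = 0.0942) or with only the 6 arrays of the day (adjusted p = 0.14). At day 3 the values were 8.29, 8.54 and 7.89 with IL-1β and 7.61, 7.35 and 7.66 without it, and at day 27 they were 6.79, 7.53 and 7.53 with it and 7.49, 6.50 and 6.78 without it. The day 3 groups were apart and those of day 27 overlapped. Averaged over days HMGCS1 was 1.78-fold higher (0.83 ± 0.16, adjusted p = 0.000202), in 14 of 15 pairs, but at 0.51 it did not pass without replicate 2 (adjusted p = 0.0529).

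Unstimulated HMGCS1 varied over the culture. Its means were 7.73 ± 0.33 at day 0 and 7.54 ± 0.17 at day 3, and from day 9 on they were 5.96 ± 0.96, 6.78 ± 0.39, 6.62 ± 0.25 and 6.93 ± 0.51 (SD, n = 3 each). This variation passed the F-test (F = 6.21, adjusted p = 0.0205), and without any 1 of the 3 replicates it did not (adjusted p of 0.222, 0.299 and 0.0742 without replicates 1, 2 and 3). For the other 5 genes the adjusted p of this test lay between 0.421 for INSIG1 and 0.799 for DHCR7. A fit with the replicate number as a block gave MSMO1, SREBF1 and INSIG1 unadjusted p-values of 0.00772, 0.0193 and 0.0475 in this F-test. None of these 3 was called there (adjusted p of 0.0824, 0.144 and 0.237). With IL-1β the mean of HMGCS1 was 8.24 ± 0.33 at day 3, the highest of its 11 groups, and 7.28 ± 0.43 at day 27. From day 9 on its stimulated means (7.55, 7.53, 7.39 and 7.28) lay below the 7.73 of day 0, a comparison that was not tested.

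SQLE encodes squalene epoxidase, which carries out the first oxygenation of the sterol branch. Its signals at day 3 were 10.78, 10.40 and 10.04 with IL-1β and 9.84, 9.94 and 9.88 without it, and at day 15 they were 10.71, 10.33 and 9.80 against 9.85, 9.19 and 9.05. At day 27 the order was no longer the same, with 9.44, 9.78 and 9.99 in stimulated explants and 10.32, 9.26 and 10.16 in unstimulated ones. SQLE was thus higher with IL-1β in 3 of 3 pairs at each day up to day 21 and in 1 of 3 pairs at day 27. Its average difference was 0.45 ± 0.13, or 1.37-fold (adjusted p = 0.00597), and at 0.34 it did not pass without replicate 2 (adjusted p = 0.174). The day 15 difference of 0.92 ± 0.28 passed (adjusted p = 0.0285), but not without replicate 1, 2 or 3 (adjusted p of 0.0527, 0.276 and 0.0848). That of day 27, -0.18 ± 0.28, did not pass (adjusted p = 0.756). Group means spanned 9.36 to 10.41, and those of unstimulated explants at days 3 and 27 (9.89 and 9.91) lay above that of stimulated explants at day 27 (9.74), by less than the SDs of day 27.

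MSMO1 encodes the methylsterol oxidase that strips methyl groups from lanosterol derivatives. At day 3 it gave 10.57, 10.42 and 10.01 with IL-1β, against 9.42, 9.15 and 9.34 without it. At day 9 the signals were 10.46, 10.13 and 9.66 in stimulated explants and 8.88, 8.29 and 8.84 in unstimulated ones. At day 15 they were 10.86, 10.20 and 9.91, against 9.17, 8.94 and 8.55. The treatments lay well apart at these days, in each replicate number. At day 21 stimulated explants had 10.67, 9.97 and 9.68 and unstimulated ones 9.38, 9.11 and 8.74, and at day 27 they had 9.77, 9.40 and 9.68, against 9.80, 8.67 and 9.30. The groups met only at day 27, where the unstimulated array of replicate 1 had the highest value of both. Averaged over days MSMO1 was 2.08-fold higher (1.05 ± 0.13, adjusted p = 3.18e-07), in 14 of 15 pairs. All 5 stimulated group means (9.62 to 10.33) were above all 6 unstimulated ones (8.67 to 9.47, the highest being day 0).

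DHCR7, which makes cholesterol by the final reduction of one branch of the pathway, was the 1 measured gene of the set without a call. Its 15 stimulated arrays ranged from 7.27 to 8.48 with a median of 8.08, and the 15 unstimulated arrays of the same days from 7.44 to 8.41 with a median of 8.17. The ranges covered each other almost wholly. The average difference was -0.02 ± 0.10 (adjusted p = 0.887), with a 95% confidence interval of -0.23 to 0.18 and a higher value in 6 of 15 pairs. The groups separated at day 21 alone, where all 3 stimulated arrays (8.05, 8.06 and 8.03) were below the unstimulated ones (8.17, 8.41 and 8.40), and the difference there of -0.28 ± 0.23 did not pass (adjusted p = 0.524). The share of all probe sets with this downward order was not counted.

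Taken day by day, calls fell on days 9, 15 and 21. At day 3, 0 of 7 were called by limma (3 had an unadjusted p under 0.05), beside 3.32% of all probe sets in either direction and 1.77% as higher. At day 9, 3 of 7 were called as higher (SREBF2, HMGCS1 and MSMO1), beside 3.91% of probe sets that were higher (7.54% in either direction). At day 15, 4 of 7 were higher (SREBF2, INSIG1, SQLE and MSMO1), beside 6.79% (12.7% in either direction). At day 21, 2 of 7 were higher (SREBF2 and MSMO1), beside 6.11% (12.1% in either direction). At day 27, 0 of 7 passed (3 at an unadjusted p under 0.05), beside 14.8% of all probe sets in either direction and 8.25% as higher. Among the 12961 brighter probe sets, 516, 1216, 1950, 1758 and 2373 were called as higher at the 5 days in order, a larger share each time. Without replicate 2, MSMO1 at day 15 was the 1 call of these days that held, and SREBF2 then had adjusted p-values of 0.312, 0.0822 and 0.0936 at days 9, 15 and 21. Without replicate 3 SREBF2 did not pass at day 9 (adjusted p = 0.0558) or day 21 (adjusted p = 0.0881). MSMO1 at day 21 did not pass without replicate 1 or 3 either (adjusted p of 0.0714 and 0.0897), nor with only that day's arrays (adjusted p = 0.0597). With the replicate number as a block, 2 genes passed at day 3 (SREBF2, adjusted p = 0.0266, and MSMO1, adjusted p = 0.00267) and 2 at day 27 (SREBF1, adjusted p = 0.0192, and SREBF2, adjusted p = 0.0203), so the counts of 0 at both ends depend on the model. The block also added SREBF1 at day 15 (0.41, adjusted p = 0.0443).

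The estimates themselves, in order of day, were 0.93, 1.32, 1.31, 1.15 and 0.83 for SREBF2 (SE 0.30 each). MSMO1 had 1.03, 1.41, 1.44, 1.03 and 0.36 (SE 0.30 each), and HMGCS1 0.70, 1.59, 0.75, 0.77 and 0.36 (SE 0.37 each). SREBF1 had its smallest difference at day 3, 0.13 ± 0.19, and its largest at day 27, 0.46 ± 0.19. A change of the difference between days was nevertheless not called for any of the 7 genes. The F-test of that change gave adjusted p-values of 0.701 for MSMO1 to 0.997 for INSIG1, and 0 of 7 had an unadjusted p under 0.05, beside 0.409% of all probe sets called. The narrower test of day 27 against day 3 also called 0 of 7 (0 at an unadjusted p under 0.05), beside 1.1% of all probe sets. These unadjusted counts depend on the model. With the replicate block, MSMO1 had an unadjusted p of 0.00761 in the F-test (F = 4.46, adjusted p = 0.219). In the narrower test it then had 0.0312 (-0.67, adjusted p = 0.293). Without replicate 1, whose unstimulated array at day 27 was the highest of its group for SREBF2, HMGCS1, SQLE and MSMO1, SREBF2 at that day differed by 1.14 and passed (adjusted p = 0.017).

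**Figure D2:**
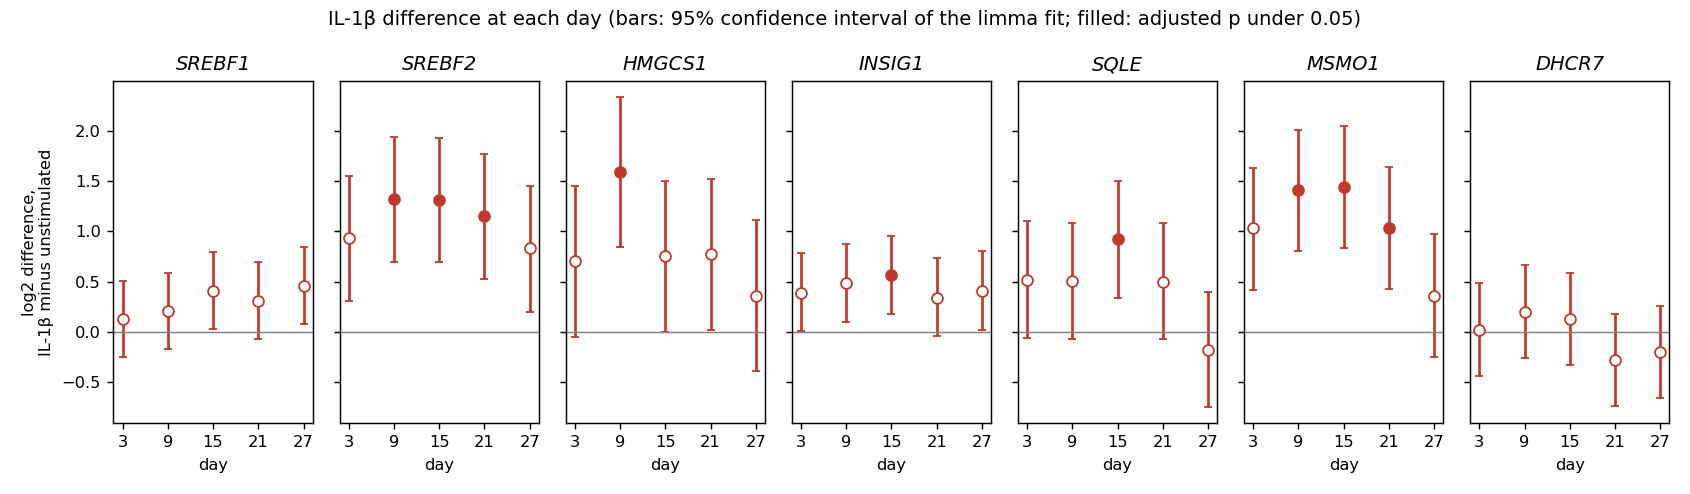
Log2 difference of stimulated minus unstimulated explants (vertical axis) for each gene at days 3 to 27 (horizontal axes); points are limma estimates from 3 against 3 arrays, bars their 95% confidence intervals, and filled points have an adjusted p under 0.05. SREBF2 and MSMO1 have filled points at days 9, 15 and 21, while all points of SREBF1 and DHCR7 are open.

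Within stimulated explants, the enzyme genes and INSIG1 had lower mean signals at day 27 than at day 3. The difference (day 27 minus day 3) was -0.96 ± 0.37 for HMGCS1, -0.72 ± 0.30 for MSMO1, -0.67 ± 0.28 for SQLE and -0.50 ± 0.19 for INSIG1. None of these 4 passed (adjusted p of 0.171, 0.219, 0.227 and 0.159), although all 4 had an unadjusted p under 0.05, and 3.28% of all probe sets were called. With the replicate block MSMO1 passed (adjusted p = 0.0437). DHCR7, the remaining enzyme gene, had -0.41 ± 0.23 (limma unadjusted p = 0.083, adjusted p = 0.416). The SREBP genes had 0.35 ± 0.19 for SREBF1 and -0.10 ± 0.30 for SREBF2 (adjusted p of 0.377 and 0.942). The F-test over all 5 stimulated times called 0 of 7 (0 at an unadjusted p under 0.05), beside 0.903% of all probe sets. With the replicate block, MSMO1 and SREBF1 had unadjusted p-values of 0.0127 and 0.0454 in this F-test and were not called (adjusted p of 0.215 and 0.39). In unstimulated explants, 0 of 7 passed between days 0 and 3 (1 at an unadjusted p under 0.05, beside 0.401% of probe sets) and 0 of 7 between days 3 and 27 (1 at an unadjusted p under 0.05, beside 1.01%). That 1 gene of days 3 to 27 was INSIG1, at -0.52 ± 0.19, close to its -0.50 with IL-1β. Without the cytokine HMGCS1 had -0.61 ± 0.37, and MSMO1, SQLE and DHCR7 had -0.05, 0.03 and -0.18. The test of whether this change differs between treatments called 0 of 7, as given above.

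The difference can also be read by replicate number, taken here to stand for the horse. The mean difference over 5 days for SREBF2 was 0.94, 1.41 and 0.97 in replicates 1, 2 and 3 (SD 0.27), and for MSMO1 it was 1.14, 1.19 and 0.83 (SD 0.19). HMGCS1 had 0.62, 1.49 and 0.40 (SD 0.58), the widest spread of the 7 genes. SQLE had 0.44, 0.68 and 0.25 (SD 0.22). The 6 genes other than DHCR7 were positive in all 3 numbers, and DHCR7 had both signs, at -0.05, -0.19 and 0.17. Replicate 2 had the largest value for SREBF2, HMGCS1, INSIG1, SQLE and MSMO1, whereas SREBF1 had its largest, 0.45, in replicate 3. The 3 differences per gene were not tested. An exact test of the 3 stimulated against the 3 unstimulated arrays of a day cannot give a p below 0.1, and was not used either.

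**Figure D3:**
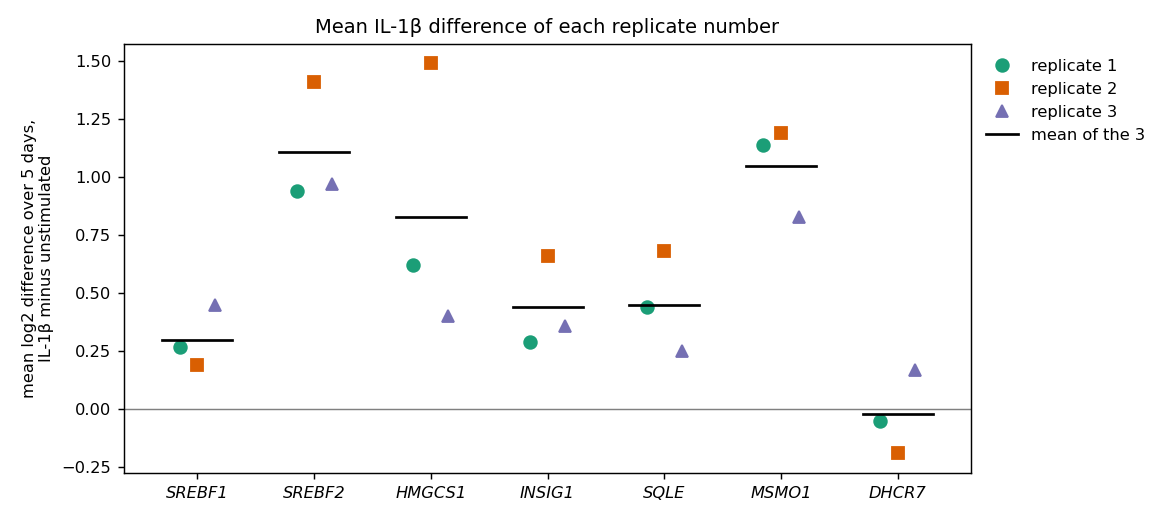
Mean log2 difference over days 3 to 27 (vertical axis, stimulated minus unstimulated) in replicates 1, 2 and 3 for each gene (horizontal axis); black lines are the mean of the 3. HMGCS1 spans 0.40 to 1.49, and DHCR7 has values on both sides of 0.

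The courses of the genes over the 11 groups were ranked by likeness. Likeness was the root mean square difference between the 11 group means of a pair of genes, each centred on its own mean, so that a smaller value means a closer course. INSIG1 and SQLE were the closest pair at 0.188 log2 units, followed by SREBF2 and MSMO1 at 0.25. SREBF1 and HMGCS1 were farthest apart at 0.614. Among all other named genes, HMGCS1 was closest to TIMP1 (0.233) and ACLY (0.273), and SQLE to LSS (0.118) and ADORA2A (0.136). SREBF2 had NCAPD2 and SSH2 as its closest (0.147 and 0.149), MSMO1 had EXOC6B and GAS7 (0.15 and 0.175), and INSIG1 had ARPC1B and TMEM256 (0.069 and 0.088). For SREBF1 they were HDAC5 and PRRC2B (0.081 each), and for DHCR7 ANKRD13A and DYNC1I2 (0.08 and 0.091). These values describe 11 groups that share the same 33 arrays, and genes that move little have small values by construction.

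Of 15 other enzymes of cholesterol synthesis measured (18 listed), 8 rose, 0 fell and 7 did not pass in the average over days, with a median difference of 0.25. Here and below, rose and fell mean higher and lower than in unstimulated explants of the same days, not a change from day 0. ACAT2, the thiolase that opens the route, rose by 0.86 ± 0.08 (adjusted p = 1.14e-09), in 15 of 15 pairs, and PMVK, a mevalonate pathway kinase, by 0.49 ± 0.09. Further down, the lanosterol synthase gene LSS rose by 0.46 ± 0.13, the lanosterol demethylase gene CYP51A1 by 0.72 ± 0.11 and the sterol isomerase gene EBP by 0.44 ± 0.12. Without replicate 2 the count of genes that rose was 3, and LSS and EBP were no longer called (adjusted p of 0.135 and 0.203). LBR, which encodes a sterol reductase of the nuclear membrane and is named here after its values were seen, differed by -0.27 ± 0.10 and missed the threshold (adjusted p = 0.0519); with the replicate block, 1 of the 15 genes fell.

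Of 7 genes that process and sense the SREBPs, 3 fell, 1 rose and 3 did not pass, with a median of -0.24. INSIG2, the sister gene of INSIG1, fell by 0.88 ± 0.10 (adjusted p = 3.96e-08), and it was lower in all 15 pairs. At day 3 it had 8.47, 7.74 and 8.59 with IL-1β and 9.89, 9.52 and 9.06 without it, and at day 27 8.05, 7.76 and 8.06 against 9.01, 8.52 and 9.01. Both treatments were apart at both days, with IL-1β lower, an order whose share of all probe sets was not counted. Day 0 explants gave 8.36, 8.35 and 8.25, so that unstimulated explants lay above their day 0 level at all 5 later days on average, at 8.85 to 9.49, and stimulated ones at 7.96 to 8.27. ERLIN1, an endoplasmic reticulum protein that restrains SREBP activation, fell by 0.37 ± 0.08, and MBTPS1, the first Golgi protease of SREBP release, by 0.24 ± 0.07. For the second protease gene, MBTPS2, the difference of -0.31 ± 0.12 missed the threshold (adjusted p = 0.0507) and met it with the replicate block (adjusted p = 0.0343). SCAP rose by 0.19 ± 0.06 (adjusted p = 0.0238), and did not pass without replicate 1, 2 or 3 or when the arrays were normalised once more (0.11, adjusted p = 0.263). MBTPS1 did not pass without replicate 1 or 2 (adjusted p of 0.137 and 0.0608) or with arrays centred on their medians (-0.19, adjusted p = 0.0682).

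Among 9 genes of sterol uptake and transport measured (12 listed), 4 rose, 0 fell and 5 did not pass, with a median of 0.29. These 4 act in different ways. LRP8, a receptor for apolipoprotein E, rose by 1.49 ± 0.11 (adjusted p = 2.76e-11), the lysosomal cholesterol exporter gene NPC1 by 0.78 ± 0.10 and SOAT1, which esterifies cholesterol for storage, by 0.82 ± 0.11. MYLIP, a ubiquitin ligase that limits lipoprotein uptake, rose by 1.15 ± 0.10. All 4 were higher in 15 of 15 pairs. STARD4, a sterol transfer protein gene, differed by 0.29 ± 0.19 (adjusted p = 0.275). NPC2, the lysosomal cholesterol carrier gene, named here after its values were seen, averaged near 0 but fell at day 3 (-0.72 ± 0.17, adjusted p = 0.0144), and its differences at the later days in order were -0.31, 0.41, 0.39 and 0.48, none of which passed.

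The fatty acid and NADPH genes, many of them known targets of the SREBPs encoded by SREBF1, split in direction. Of 16 measured, 6 rose, 4 fell and 6 did not pass, with a median of 0.05. FADS1, a fatty acid desaturase, rose by 1.60 ± 0.13, and the acyl-CoA synthetase gene ACSL3 by 1.55 ± 0.10. SCD, the stearoyl-CoA desaturase, rose by 1.02 ± 0.13, ACLY, which supplies acetyl-CoA from citrate, by 0.83 ± 0.08 and the phosphatidate phosphatase gene LPIN1 by 0.50 ± 0.08. FADS1, ACSL3, SCD and ACLY were higher in 15 of 15 pairs, with the adjusted p of SCD, 4.31e-07, the largest of the 4. The 4 genes that fell are named here after their values were seen. ACACA fell by 0.38 ± 0.07 (adjusted p = 4.74e-05), in 15 of 15 pairs. THRSP fell by 0.38 ± 0.10, ACSS2 by 0.32 ± 0.10 and ME1 by 0.25 ± 0.07. FASN did not pass (0.17 ± 0.13, adjusted p = 0.353). Without replicate 1, or without replicate 2, the count that fell was 2.

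Of 9 genes of cholesterol export and the liver X receptors (LXR), 2 rose, 5 fell and 2 did not pass, with a median of -0.38. Without replicate 2 the count that rose was 1. The exporter gene ABCA1 was lower with IL-1β by 0.71 ± 0.14 on average, but not evenly. Its mean was 6.51 at day 0 and 6.40 to 7.17 with IL-1β. Without it the later means, in order of day, were 7.49, 8.02, 7.46, 6.88 and 6.97, all above that of day 0. Its differences in order of day were -0.92, -1.58, -1.06, -0.16 and 0.19, of which those of days 9 and 15 passed, and the change between days did not (F = 5.02, adjusted p = 0.225). Of the others, the sterol hydroxylase gene CYP27A1 fell by 0.61 ± 0.12 and APOE by 0.60 ± 0.13, while NR1H3, which encodes an LXR, rose by 0.67 ± 0.14. The APOE signals were low, at 3.22 to 4.23 with IL-1β and 3.42 to 5.22 without it, beside a median of 5.26 over all values. APOA1 fell by 4.57 ± 0.20, with a median of 5.11 in stimulated and 9.97 in unstimulated explants. Of 5 genes that govern the turnover of SREBPs and of sterol enzymes (8 listed), 0 rose, 1 fell and 4 did not pass, with a median of 0.01. The gene that fell was the chaperone HSP90B1 (-0.24 ± 0.06, adjusted p = 0.0032), and not without replicate 2 (adjusted p = 0.0639). The ubiquitin ligase genes RNF139 and SYVN1, the deubiquitinase gene USP20 and FBXW7, a ligase subunit that marks SREBPs for degradation, differed by -0.16, 0.12, 0.03 and 0.01. Each of these lists may be read against the 15.6% of all probe sets that were higher and the 15.3% that were lower in the same comparison. Among the 12961 brighter probe sets, 3871 were higher and 2962 lower, so that the share over all probe sets is a low yardstick for bright genes.

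**Figure D4:**
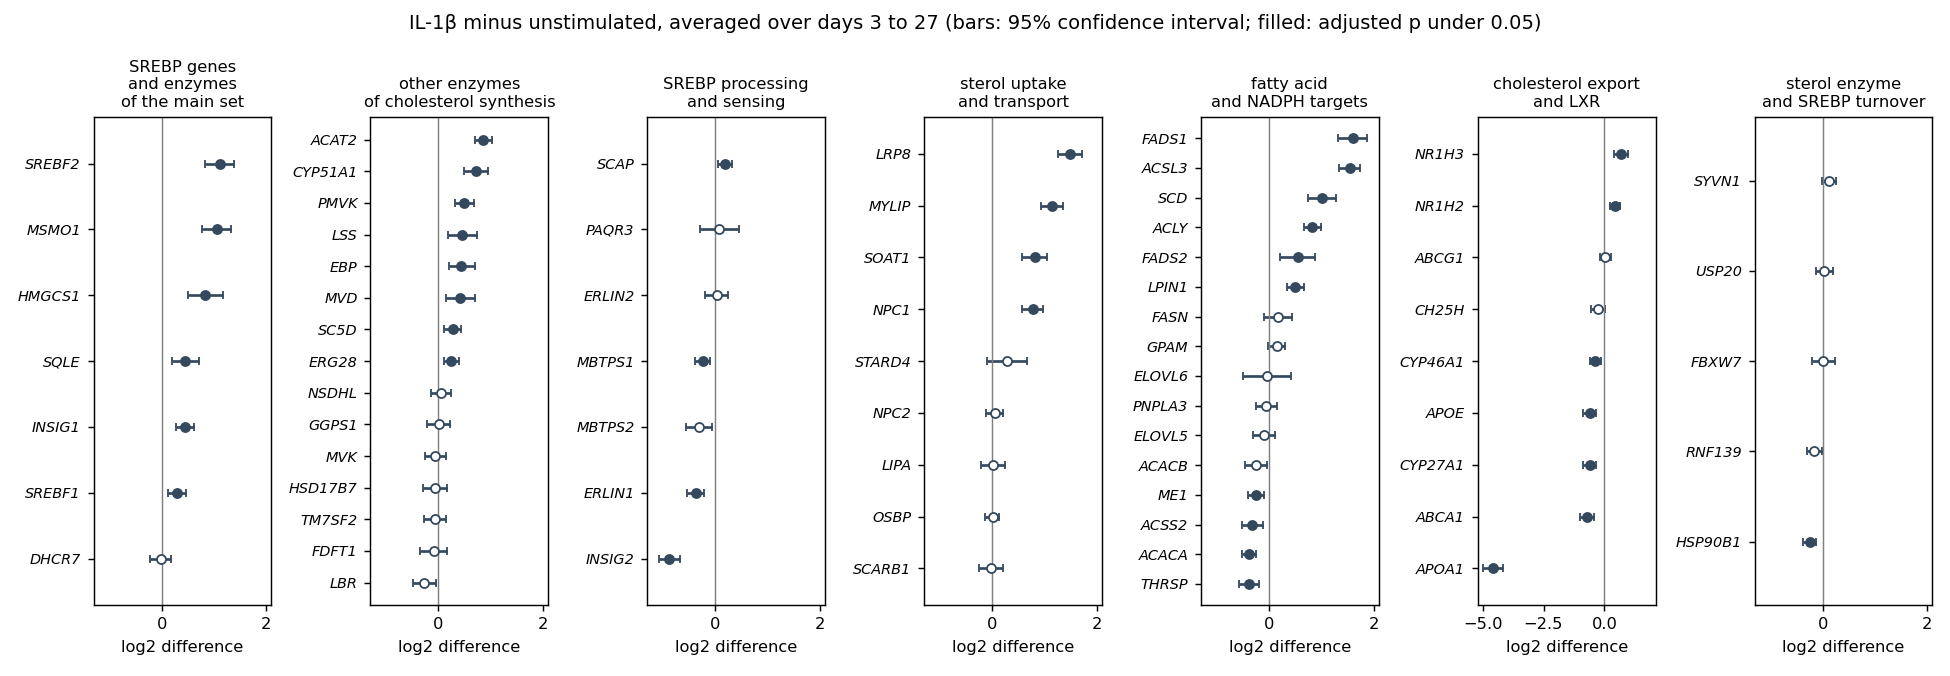
Log2 difference of stimulated minus unstimulated explants averaged over days 3 to 27 (horizontal axes; the export panel has a wider scale) for the 7 genes and 6 lists of related genes (rows); points are limma estimates, bars 95% confidence intervals, filled points have an adjusted p under 0.05. Points of SREBF2, LRP8 and FADS1 lie above 1, and that of INSIG2 at -0.88.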

How the data were processed

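Total RNA of 33 samples was measured on Affymetrix arrays. The authors deposited log2 expression values, 1 per probe set and array. The tools named per the submitters' processing notes are RMA, limma and the Affymetrix Expression Console; their versions and order are not given in the sources used here. RMA equalises the arrays' distributions, which removes a shift shared by most genes, and compresses changes near the lowest signals. The log base was inferred from the values. Neither genome nor scan batches were used, and no sequence is printed.

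GEO's platform table, possibly outdated, supplied the gene names, with 1 symbol for 16789 probe sets, several for 343 and none listed for 8791. limma 3.58.1 (R 4.3.3; lmFit, eBayes) was fitted with 1 mean per group over all 33 arrays and 25923 probe sets, with 22 residual degrees of freedom. Tests were two-sided, with Benjamini-Hochberg adjustment over all probe sets. The fit was tested on simulated data in which all arrays were drawn independently. That test does not cover the likeness of arrays that share a replicate number. Every measured gene of the main set was named, as were up to 5 genes per list by the smallest p of the average, and the 2 closest profiles per gene. Members and lists were chosen with earlier results of these data known.

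Replicate numbers go with 1 experiment prefix each in the labels, and 3 horses are stated, so that a number was read as a horse. Deviations from group means correlated at a median of 0.164 within numbers and -0.0841 between them, and 14 of 15 pairs of 1 day and number exceeded 0.1 (lowest 0.0781). The other settings tried were a fixed or random block for the replicate number, leaving out dim probe sets, renormalisation, median centring, an intensity trend, array weights, only the 6 arrays of a day, and leaving out a replicate or the unstimulated day 27 array of replicate 3.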

Additional observations from a re-analysis of the deposited data

Results flagged for a closer look

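For 3 genes of the pathway lists, MYLIP, NPC2 and ABCG1, the difference between stimulated and unstimulated explants itself changed between days 3 and 27. Among the marker lists, 1 chondrocyte and 1 fibroblast marker were also called in that test, both toward a lower difference. MYLIP, the ubiquitin ligase gene named above, had log2 signals of 7.77, 8.02 and 7.51 with IL-1β at day 3, against 7.54, 7.73 and 7.27 without it. At day 27 they were 9.37, 8.80 and 8.96 against 6.68, 7.07 and 7.44. The difference was larger at day 27 by 1.72 ± 0.33 (limma adjusted p = 0.00714). It ranged from 1.36 to 1.95 when a replicate was left out, and then did not pass (adjusted p of 0.189, 0.17 and 0.0511 without replicates 1, 2 and 3).

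NPC2, named after its values were seen, had 9.88, 9.67 and 10.42 with IL-1β at day 3, against 11.03, 10.58 and 10.51 without it, and at day 27 10.19, 10.18 and 10.38 against 9.78, 9.74 and 9.78. All stimulated arrays lay below the unstimulated ones at day 3 and above them at day 27. The share of all probe sets was not counted for the day 3 order and was 13.1% for that of day 27. The change of the difference was 1.2 ± 0.24 (adjusted p = 0.012), and the test across all days passed as well (F = 9.71, adjusted p = 0.0241). The day 27 against day 3 change did not pass without replicate 1 (1.02, adjusted p = 0.35) or replicate 2 (1.13, adjusted p = 0.291).

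ABCG1, a cholesterol exporter gene that was picked after its values were seen, was lower with IL-1β at day 3 (6.13, 6.01 and 6.18 against 6.71, 6.68 and 6.73) and higher at day 27 (7.77, 7.40 and 7.21 against 6.59, 6.66 and 6.66). The groups did not overlap at either day, in opposite directions, and as for NPC2 the share of all probe sets is known for day 27 alone. The change of the difference was 1.42 ± 0.35 (adjusted p = 0.0417). It did not pass without replicate 1 (1.25, adjusted p = 0.46), without replicate 2 (1.43, adjusted p = 0.323), without the unstimulated day 27 array of replicate 3 (1.43, adjusted p = 0.0725) or after renormalisation (1.34, adjusted p = 0.0508). The test across all days did not pass (F = 5.01, adjusted p = 0.228).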

How the results depend on the processing

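In the average over days, SREBF2 and MSMO1 passed under all 11 alternatives run, at 0.95 to 1.19 and 0.97 to 1.16. HMGCS1, INSIG1, SQLE and SREBF1 passed under 10 of 11 each. The count of genes called there was 3 to 6 with a replicate or the day 27 array left out (6 with all arrays). At day 3 it was 2 with the fixed replicate block, and 1 with the random block, without dim probe sets, with an intensity trend, with array weights or with only that day's arrays (0 in the main model). At day 27 it was 2 with the fixed block or median centring and 1 with the random block, without dim probe sets or with array weights, and 0 to 1 with arrays left out (0). At day 9 arrays left out gave 0 to 3 (3), at day 15 1 to 4 (4) and at day 21 0 to 2 (2). Renormalisation or only that day's arrays gave 2 at day 15, and only that day's arrays gave 1 at day 21. For variation in unstimulated explants arrays left out gave 0 to 2 (2), and for day 27 against day 3 with IL-1β the fixed block gave 1 (0). Beyond the calls named in the report, the block changed no other call of the main set.

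Signs turned only for values that were not called. DHCR7 was -0.01 at day 3 after renormalisation and 0.03 on average after median centring, and SQLE at day 27 was 0.04 with array weights. With arrays left out DHCR7 ranged from -0.11 to 0.17 at day 3, -0.10 to 0.26 at day 15, -0.70 to 0.08 at day 27, -0.12 to 0.06 on average and -0.29 to 0.12 from day 0 to day 3. SQLE then ranged from -0.52 to 0.17 at day 27 and -0.11 to 0.44 from day 0 to day 3, SREBF2 from -0.33 to 0.27 between days 3 and 27 with IL-1β, USP20 from -0.03 to 0.10 and FBXW7 from -0.03 to 0.09.

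Over all probe sets, leaving out 1 replicate gave 217 to 448 calls at day 3 (860), 638 to 1271 at day 9 (1954), 1293 to 2290 at day 15 (3284), 1548 to 2262 at day 21 (3144), 1890 to 2603 at day 27 (3833) and 5239 to 6583 on average (7991). Fewer samples are part of that construction. Using only the arrays of days 3, 9, 15 and 27 gave 354, 1102, 1916 and 1850. The comparisons over time moved in both directions. Change of the difference between days had 106 calls (233 with the fixed block, 186 with the random block, 194 with array weights, 1 to 51 without a replicate), and day 27 against day 3 of the difference 284 (496 with the fixed block, 1 to 166 without a replicate). Unstimulated variation had 1208 (1838 with the fixed block, 271 to 441), days 0 to 3 had 104 (179 with the fixed block, 172 with array weights, 0 to 22) and days 3 to 27 had 261 (447 with the fixed and 398 with the random block, 35 to 109, and 113 without the day 27 array of replicate 3). Variation with IL-1β had 234 (465, 390 and 823 with the fixed block, random block and array weights, 3 to 139), and day 27 against day 3 with IL-1β 849 (1527 with array weights, 20 to 600). Signal over background was not measured, and 3 arrays per group limit each value.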

Other observations

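The precursors of microRNA-33, which in humans lie in introns of the SREBP genes and act against cholesterol exporters, have probe sets of their own. They were added outside the rule for naming genes. MIR33A was higher with IL-1β by 0.46 ± 0.15 on average (limma adjusted p = 0.0171), in 11 of 15 pairs, and MIR33B differed by 0.07 ± 0.14 (adjusted p = 0.732). The signals were low, at 3.21 to 5.04 with IL-1β and 3.17 to 4.09 without it for MIR33A, beside a median of 5.26 over all values. The MIR33A result did not pass without replicate 1 or 2 (adjusted p of 0.0533 and 0.0994). Whether these probe sets read the microRNA precursor or the host transcript was not tested.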
